A study of Zea mays with 4 samples.

Results

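The regions described here are the peaks of ZmbZIP22 on maize chromosome 7 that were listed near each other in both replicates of a chromatin immunoprecipitation experiment. They were chosen by 2 values, the chromosome and the summit position: a peak is a member when the other list has a summit on chromosome 7 within 500 bp. The rule took 124 peaks from each list, out of 161 chromosome 7 peaks and 1961 peaks in all in replicate 1, and out of 143 and 1791 in replicate 2. The counts are no measure of agreement between the replicates, because any filter applied to the lists is not given. The members are 8.0% of the 1550 peaks per list that have such a partner on any chromosome. Matched in order of position, they form 124 pairs. All material was wild-type endosperm at 15 days after pollination. There were 2 libraries made with an anti-ZmbZIP22 antibody produced by the submitters, and 2 libraries made with a purchased nonspecific IgG as the antibody control. Both peak lists come from the anti-ZmbZIP22 libraries, and no IgG values of their own were analysed here. Whether the replicates were separate plants or pooled kernels is not given in the labels, and neither is the maize line.

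ZmbZIP22 belongs to the basic leucine zipper (bZIP) family of transcription factors, which bind DNA as dimers through a basic region next to a zipper of leucines. It is known for acting on the gene of the 27-kD gamma-zein, a cysteine-rich storage protein that accumulates early in endosperm protein bodies, where the zeins are packed. Chromosome 7 carries that gene (gz27), the gene of the 50-kD gamma-zein (gz50), and opaque2, which encodes another bZIP activator of zein genes. In the RefSeq gene table of the Zm-B73-REFERENCE-NAM-5.0 assembly, gz50 and gz27 are neighbours with 0 genes between them. The genome build of the peak lists is not given in the sources used here, so no member could be placed relative to these genes, and no sequence is shown. Coordinates below are those of the lists, and the interval given for a pair is the replicate 1 interval unless stated.

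The members were spread along the whole chromosome but unevenly. The first pair lay at 2624159 to 2624478 and the last at 174801305 to 174801579. Counted in windows of 10 Mb, 83 of the 124 pairs (66.9%) had their replicate 1 summit between 110 and 170 Mb, and 19 (15.3%) lay in the 80 Mb from 30 to 110 Mb. The window from 150 to 160 Mb held 32 pairs, that from 120 to 130 Mb held 21, and the first window held 13. Each of the other windows held between 1 and 8. The widest stretch without a member ran for 15.5 Mb, up to the pair at 116492359 to 116492616, and the next widest for 11.9 Mb, up to the pair at 34646089 to 34646363. Position did not go with a steady change in strength over the whole chromosome. Median fold enrichment from 0 to 30 Mb was 3.76 in replicate 1 and 6.81 in replicate 2. From 30 to 110 Mb it was 5.0 and 6.12, and from 110 to 170 Mb it was 4.33 and 7.54. The 3 pairs from 170 to 180 Mb had medians of 4.73 and 4.73. In replicate 2 the window medians fell from 140 to 180 Mb, with 9.54, 7.74, 5.34 and 4.73. Fold enrichment is the caller's ratio of the fragments stacked at the summit (the pileup) to the local background.

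**Figure D1:**
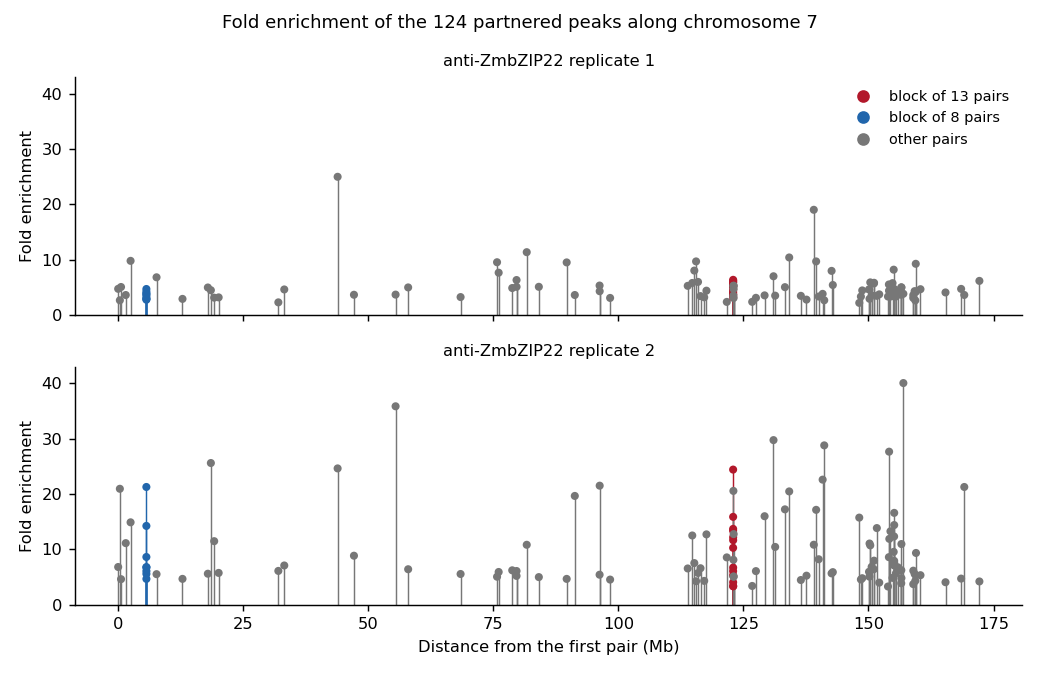
Fold enrichment (vertical axis, ratio) of each of the 124 members in replicate 1 (upper panel) and replicate 2 (lower panel) against the distance of its replicate 1 summit from that of the first pair (horizontal axis, Mb). Each point with its line is 1 peak, coloured for the blocks of 13 and 8 closely spaced pairs; members are few in the middle of the chromosome, and the highest values are 24.99 in replicate 1 and 40.1 in replicate 2.

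Neighbouring pairs were often very close. The median gap between successive replicate 1 summits was 388 kb, with quartiles of 15.98 and 1546 kb. Of 123 gaps, 26 (21.1%) were under 5 kb, 43 were under 100 kb and 11 were over 5 Mb. The closest summits of replicate 1 were 160 bp apart, within the interval at 8268435 to 8269304. On the other chromosomes the share of partnered gaps under 5 kb ran from 4.55% to 23.1%, so the share on chromosome 7 lay inside their range.

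The pairs fell into 18 clusters of 2 or more, when a gap of 1 Mb or more ends a cluster, and 20 pairs stood alone. The cluster with the most pairs held 20, between 156529664 and 159602103, over 3.07 Mb. Next was a cluster of 18 pairs between 125564189 and 125673933, over only 110 kb, or 0.0628% of the chromosome up to its last peak. The cluster that follows in size held 9 pairs between 152737109 and 154776985, over 2.04 Mb. Fold enrichment in these clusters had a median of 4.06, 4.90 and 4.61 in replicate 1 and of 8.27, 9.21 and 6.86 in replicate 2. The medians over all members were 4.36 and 6.80.

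At a gap of 5 kb, chosen after the positions had been seen, 34 pairs formed 8 blocks. A block of 13 pairs, inside the cluster of 18, ran from 125564189 to 125578415, and a block of 8 pairs ran from 8261241 to 8269167. These blocks spanned 14.2 kb and 7.93 kb and together held 16.9% of the members. No other block had more than 3 pairs. The most partnered summits within 20 kb was 13 on chromosome 7, against 9 on chromosome 1 and between 2 and 5 on the remaining chromosomes. These counts were not tested against each other, because the positions are what the rule used.

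Within the block of 13, successive replicate 1 summits were 315 to 2716 bp apart (median 1063 bp). The tallest peak of the block in both lists was the pair at 125565615 to 125566064, with 39 fragments and 5.86-fold enrichment in replicate 1 and 143 fragments and 24.4-fold in replicate 2. The pair before it, with its replicate 1 summit at 125564537, had 23 fragments (5.47-fold) in replicate 1 and 91 fragments (13.4-fold) in replicate 2. These pairs are the third and the second of the block from the left, and replicate 2 was high at both. Between replicates 1 and 2, the first pair differed less, with 3.67-fold and 6.08-fold enrichment. At the right end, the pair at 125578241 to 125578599 had 27 fragments (6.16-fold) in replicate 1, the fourth most of the block, and 11 fragments (3.34-fold) in replicate 2, the fewest. Across the 13 pairs, replicate 1 values lay between 3.18-fold and 6.37-fold, none at 10-fold or more. Replicate 2 values lay between 3.34-fold and 24.4-fold, with 7 of them at 10-fold or more.

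To the right of this block, the same cluster went on with 5 more pairs. The pair with its replicate 1 summit at 125620232 followed after 41.8 kb, with 5.27-fold and 8.13-fold enrichment in replicates 1 and 2. Its neighbour at 125621188 to 125621545 was at 3.52-fold in replicate 1 and at 20.6-fold in replicate 2. The other 3 pairs, with replicate 1 summits at 125660041, 125660629 and 125673933, had values from 3.09 to 5.31 in replicate 1. In replicate 2 these 3 had 5.12-fold, 5.07-fold and 12.8-fold enrichment.

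The block of 8 had lower values. Its pairs had 15 to 26 fragments and 2.77-fold to 4.71-fold enrichment in replicate 1, and 18 to 83 fragments and 4.68-fold to 21.3-fold enrichment in replicate 2. The highest replicate 2 fold was at the left end, in the pair at 8261036 to 8261448 (3.88-fold in replicate 1). The most replicate 2 fragments, 83, were in the pair with its replicate 1 summit at 8264794, which had the fewest in replicate 1. Taken over both blocks, the 21 pairs had a median of 4.24-fold in replicate 1 and 6.81-fold in replicate 2, against 4.41-fold and 6.78-fold in the other 103 members. The pooled medians hide a difference between the blocks. The block of 13 had medians of 5.08-fold and 10.3-fold in replicates 1 and 2, and the block of 8 had 3.59-fold and 6.78-fold.

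**Figure D2:**
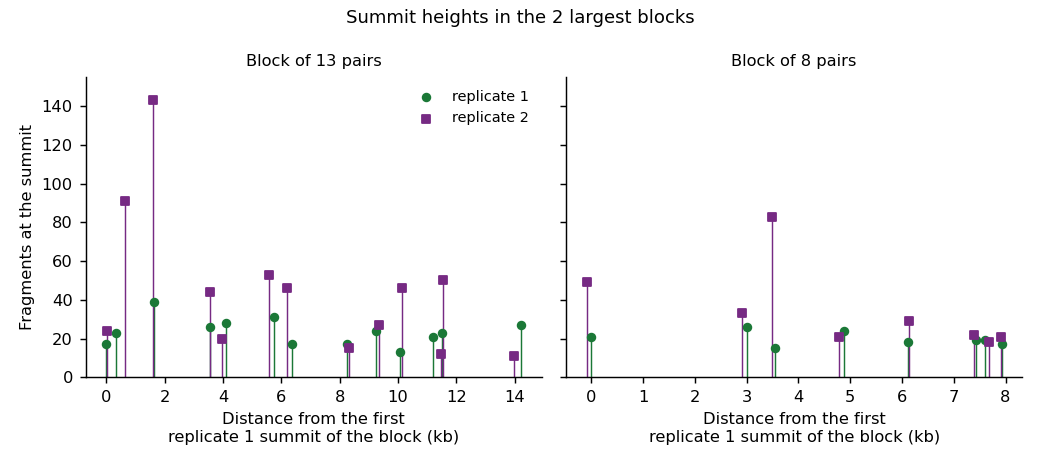
Fragments at each summit (vertical axis) against the distance from the first replicate 1 summit of the block (horizontal axis, kb) for the block of 13 pairs (left) and the block of 8 pairs (right). Circles are replicate 1 and squares replicate 2; replicate 2 reaches 143 and 83 fragments in these blocks and replicate 1 stays at or below 39 and 26.

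The replicates divided these dense stretches differently. In replicate 1, 19 members shared 9 intervals, each with 2 or 3 summits, so the 124 members had 114 distinct intervals. In replicate 2 each member had its own interval, and 4 of these overlapped an earlier one. In the block of 13, replicate 1 listed 8 intervals and replicate 2 listed 13. Members of a shared interval share its length and are not separate regions. Of the members, 15.3% shared a replicate 1 interval, against 5.75% of partnered peaks on the other chromosomes together and up to 11.6% on a single one.

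Member lengths went with this division. The median length was 342 bp in replicate 1 and 381 bp in replicate 2, with quartiles of 288 and 423 bp and of 306 and 450 bp. Replicate 1 intervals with 1 summit had a median of 322 bp and reached 619 bp at most, while the 9 intervals with more ran from 807 to 1657 bp. The longest, at 82267323 to 82268979, held 2 members, with 6.33-fold and 5.10-fold enrichment. In replicate 2 the longest member was the partner of the pair at 98888729 to 98889041, with 634 bp. It was also the tallest member of that list, with 168 fragments and 21.5-fold enrichment, where replicate 1 had 4.31-fold. The shortest length, 256 bp in replicate 1 and 265 bp in replicate 2, was shared by 11 and 8 members. Counting overlapping bases once, the members' intervals added up to 44983 bp in replicate 1, against 47167 bp in replicate 2.

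Most members were weak in replicate 1. Fold enrichment there ran from 2.20 to 24.99 with a median of 4.36 (quartiles 3.47 and 5.36), and 81 members were under 5. In replicate 2 it ran from 3.30 to 40.1 with a median of 6.80 (quartiles 5.32 and 12.6), and 24 members were under 5. These are values of the authors' caller for each peak, and each list is 1 library with its own depth and background. At least 10-fold enrichment was reached by 4 members in replicate 1 (3.23%) and by 45 in replicate 2 (36.3%). Over all partnered peaks of the 10 chromosomes the shares were 3.42% and 36.5%, so the members' shares were close to those of the whole set. On the other chromosomes, median fold enrichment ran from 3.35 to 4.404 in replicate 1, a range that holds the chromosome 7 value. In replicate 2 it ran from 6.90 to 8.18, with even the lowest just above chromosome 7. No test was made of these differences, since fold enrichment comes from the same peak calls as the rule.

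All 4 members with at least 10-fold enrichment in replicate 1 had it in replicate 2 as well, so the shared pairs are 100% of the 4 such members in replicate 1 and 8.89% of the 45 in replicate 2. Elsewhere in the genome 20 partnered pairs had both, or 40.8% of the replicate 1 peaks at this level and 3.85% of those in replicate 2. With 4 peaks this share is only a description. The first of the 4 lay at 46497117 to 46497558, 10.7 Mb after the member before it. It had a pileup of 98.96 and 24.99-fold enrichment in replicate 1, and 62 and 24.6-fold in replicate 2. The pair at 141693244 to 141693694 had 19.0-fold and 10.9-fold in replicates 1 and 2. Next came the pair at 84304451 to 84304835, with 11.4-fold and 10.8-fold, and the pair at 136780395 to 136780773, with 10.4-fold and 20.5-fold. None of these 4 lay in a dense block, and their summits were 69 to 235 bp apart between replicates.

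Below these, ranked by the smaller of the 2 values, came 8 further pairs. The pair at 5105521 to 5105879 had 9.80-fold and 14.9-fold in replicates 1 and 2, and the pair at 142164001 to 142164364 had 9.70-fold and 17.2-fold. The pairs at 157667195 to 157667555 and 117807780 to 117808203 had similar values in both lists, 8.20 and 9.56, and 8.04 and 7.54. At 133639082 to 133639504 the replicates were further apart, with 7.01-fold in replicate 1 and 29.8-fold in replicate 2. The last 3 were 2 pairs of the block of 13, with replicate 1 summits at 125573437 (6.37-fold and 6.72-fold) and 125567741 (5.94-fold and 10.3-fold), and the pair at 78692317 to 78692639 (7.66-fold and 5.93-fold).

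Many strong peaks of one list were weak in the other. The highest replicate 2 value, 40.1-fold with 143 fragments, was the partner of the pair at 159601950 to 159602212, which had 3.85-fold enrichment in replicate 1. The next, 35.9-fold with 100 fragments, was the partner of the pair at 58085268 to 58085809, which had 3.698-fold and 14 fragments. At 143784255 to 143784511 replicate 2 had 28.8-fold and replicate 1 had 2.67-fold. In fold enrichment the opposite case was milder. The pairs at 118160938 to 118161243, 92291026 to 92291344 and 78370734 to 78371137 had 9.70-fold, 9.52-fold and 9.55-fold enrichment in replicate 1, against 4.26-fold, 4.68-fold and 5.07-fold in replicate 2. Raw fragment counts, not adjusted for depth, could differ widely in that direction too. The pair at 157776984 to 157777365 had 219 fragments in replicate 1 and 21 in replicate 2. Its fold enrichment was nevertheless higher in replicate 2, with 3.93-fold and 7.54-fold in replicates 1 and 2.

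Across the 124 pairs, fold enrichment in the replicates had a Spearman's rho of 0.0438 and a Pearson's r of 0.107. Without the 2 pairs farthest from the replicate 1 median, r was −0.0237, so the small positive value rested on those pairs. Pileup gave a rho of 0.0422 and peak length a rho of 0.161. Of the 31 highest members of each list, 7 were the same pair (22.6% of each), against 105 of the 356 highest (29.5%) among the partnered pairs elsewhere. The 31 and 356 are those above the upper quartile of each list. Unrelated rankings would share about the fraction that this cut takes, 31 of 124 or 356 of 1426. The members' share lay below that fraction and the share elsewhere above it, and neither difference was tested. All of these values are descriptions over sites that share 2 libraries and the rule of selection, and sites in the same interval are not independent. The partnered pairs on the other chromosomes had a rho of 0.0197.

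**Figure D3:**
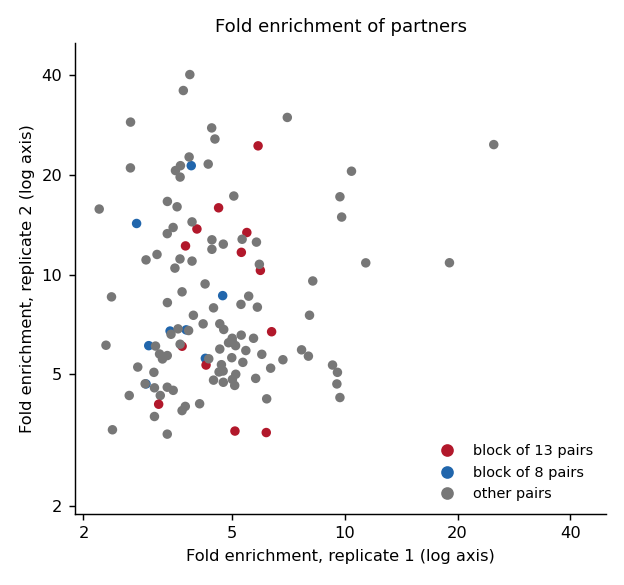
Fold enrichment in replicate 2 (vertical log axis, ratio) against replicate 1 (horizontal log axis, ratio) for the 124 pairs, coloured for the blocks of 13 and 8 pairs. The points form a cloud with no visible slope (rho 0.0438), and the pair with 24.99-fold and 24.6-fold enrichment stands apart at the right.

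Behind the fold values, the 2 lists differed in what went with height. Solving the caller's ratio for its lower term, with a pseudocount of 1, gave the background implied at each peak. In replicate 1 it ran from 2.17 to 73.0 with a median of 4.0, and 20 members sat within 0.01 of the lowest value, which is also the lowest of all partnered peaks of that list. In replicate 2 it ran only from 1.35 to 7.83, with a median of 2.92. Pileup and background had a rho of 0.769 in replicate 1 and 0.368 in replicate 2. Pileup and fold enrichment had a rho of 0.309 in replicate 1 and 0.864 in replicate 2. In replicate 1 height thus went more with background than with fold, and in replicate 2 more with fold than with background. These measures share terms by construction and are given as descriptions.

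In replicate 1, 24 members (19.4%) had a background of at least 10, within 0.01, as did 19.4% of partnered peaks on the other chromosomes, and in replicate 2 none of the members did. Those 24 had pileups of 33.3 to 191.8 but a median fold of only 3.700, against 4.54 in the other 100 members. The member with the highest background lay at 34646089 to 34646363, where a pileup of 169.0 stood over a background of 73.0 and fold enrichment was 2.30. Its replicate 2 partner had a pileup of 21 and 6.12-fold enrichment over a background of 2.59. The tallest replicate 1 member, at 157776984 to 157777365, had a pileup of 191.8, or 219 fragments, and 3.93-fold enrichment over a background of 48.0. Both were named after their values had been seen. All 24 of these backgrounds, and 58 of 124 in all, were whole numbers within 0.01, against 2 in replicate 2.

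**Figure D4:**
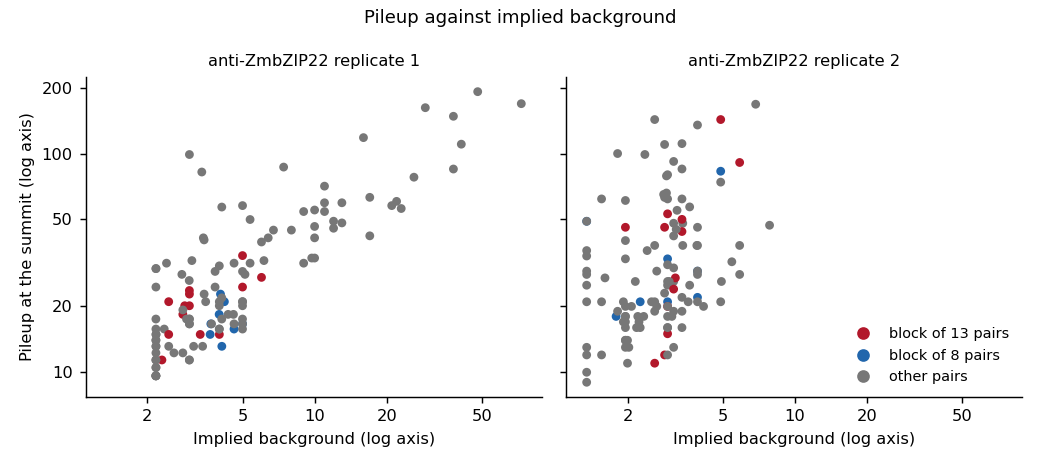
Pileup at the summit (vertical log axis, fragments as scaled by the caller) against the background implied by pileup and fold enrichment (horizontal log axis, same scale) for the members in replicate 1 (left) and replicate 2 (right), with 1 point per member, coloured for the blocks of 13 and 8 pairs. In replicate 1 the points extend to a background of 73.0 with pileup rising alongside, while in replicate 2 none exceeds 7.83.

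The fragments behind these values were few. The members' replicate 1 pileups were multiples of 0.87574 within 0.01, and dividing by this step gave 11 to 219 fragments with a median of 24.5. Replicate 2 pileups were whole, giving 9 to 168 fragments with a median of 26. The smallest peaks, with 11 and 9 fragments, have exact 95% Poisson intervals of 5.49 to 19.7 and 4.12 to 17.1 fragments. The tallest, with 219 and 168, have intervals of 191 to 250.006 and 144 to 195. These intervals cover counting error at a summit only, and library depth is unknown here.

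Partners lay closer than the rule required, but the same summit base was seldom shared. Partner summits were 137 bp apart at the median (quartiles 60.8 and 219 bp), and the largest was 294 bp. The rule allows up to 500 bp. No member pair was over 300 bp apart, which also held on 5 other chromosomes, and the remaining 4 had 55 such pairs. Distances of 0 to 49 bp and of 50 to 99 bp held 25 pairs each. The following bins of 50 bp held 19, 12, 27 and 16. Summits at most 50 bp apart were found in 26 pairs (21.0%), against 17.9% of all partnered pairs of the genome. The replicate 2 summit had the higher coordinate in 55 pairs, the lower in 68 and the same in 1.

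That last pair, at 156529580 to 156529902, was weak, with 3.35-fold enrichment and 11 fragments in replicate 1 and 3.30-fold and 12 fragments in replicate 2. Close summits were also seen at 130125472 to 130125727 (2 bp) and 156752407 to 156752703 (5 bp). Replicates 1 and 2 had 3.12-fold and 6.09-fold enrichment in the 2 bp pair, and 4.404-fold and 27.7-fold in the 5 bp pair. The farthest partners were those of the pair at 22711794 to 22712156, 294 bp apart, followed by the pair at 131857022 to 131857349 (289 bp) and the pair of the block of 13 with its replicate 1 summit at 125564537 (287 bp). In these 3 the replicate 2 fold enrichment was 5.76, 16.01 and 13.4.

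**Figure D5:**
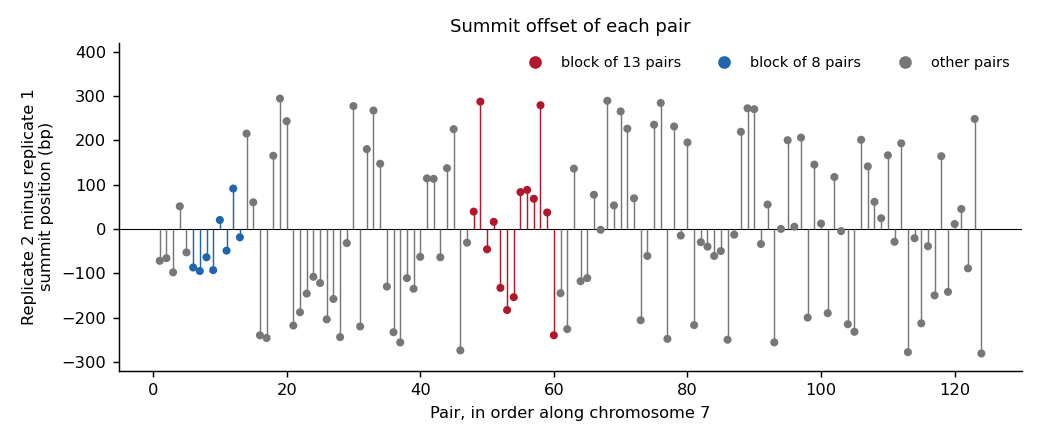
Position of the replicate 2 summit minus that of the replicate 1 summit (vertical axis, bp) for the 124 pairs in order along the chromosome (horizontal axis). Each point with its line is 1 pair, coloured for the blocks of 13 and 8 pairs; offsets of both signs occur and reach 294 bp, and the longest run of 1 sign holds 9 pairs.

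Intervals of partners overlapped in 123 of 124 pairs. With summits at most 294 bp apart and intervals of at least 256 bp, overlap followed largely from these distances and lengths. The rule alone did not force it, since 58 of 1426 partnered pairs elsewhere had intervals apart. Among the members the exception was the pair whose replicate 1 interval ends at 153259142 and whose replicate 2 interval starts at 153259157. An overlap of at least 50% of both intervals was reached by 56 pairs (45.2%), against 46.1% of all partnered pairs. The replicate 1 interval held the replicate 2 summit in 79 pairs (63.7%), against 53.1% of partnered pairs elsewhere. Median replicate 1 length was 342 bp among members and 310 bp elsewhere, and its part in this difference was not tested. The replicate 2 interval held the replicate 1 summit in 80 (64.5%), against 63.0% elsewhere. Summits lay near the middle of their own interval, at a median of 50.4% of its length in replicate 1 and 49.9% in replicate 2.

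The other chromosome 7 peaks, 37 in replicate 1 and 19 in replicate 2, had no summit of the other list near them. The members farthest from their partners were 294 bp away. Among the peaks outside the rule, the closest in replicate 2 lay at 117818232 to 117818707, with its nearest replicate 1 summit 10534 bp away and 46.0-fold enrichment. In replicate 1 it lay at 28412025 to 28412711, with a distance of 39160 bp and 114.9-fold enrichment. No such peak lay inside either dense block. Their fold enrichment began at 25.02 in replicate 1 and 25.8 in replicate 2, with medians of 39.5 and 35.7. Weaker unpartnered peaks were absent, so the share of peaks with a partner is no measure of agreement between replicates. Of the members, 0 exceeded the lowest of these values in replicate 1, where the strongest reached 24.99, and 5 did in replicate 2. In replicate 1 the 2 sets were scaled differently: all 37 unpartnered peaks had whole pileups, and 0 of them were multiples of the members' step. Their pileups are therefore not on one scale with those of the replicate 1 members, and whether their fold values are was not tested. In replicate 2 both sets had whole pileups. These values are given without a test.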

How the data were processed

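The files analysed were the peak tables and BED files of the anti-ZmbZIP22 libraries. Bowtie2 and MACS2 2.0.10 are named in the submitters' processing notes. The sources used here do not give the build, the threshold, the control or any later filter. Per the file headers, the deposited pileup is a signal, the fragments stacked at the summit, and the deposited fold enrichment is a ratio to local background. Columns 7 and 9 had lost their headings and were read, by their place in MACS2 output, as deposited −log10 p and −log10 q. Column 7 was identical to the BED score in all 1961 and 1791 rows.

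Positions were taken as listed. Partners were matched in order of summit position. The background was (pileup + 1) / fold − 1. Pairing was checked on simulated peaks, clustering on made-up positions, and the correlation function against that of scipy. The simulated peaks lay far apart, so the check did not cover the dense blocks. With the nearest summit as partner in place of order, the rho of fold enrichment was 0.0286, against 0.0438. Python 3.11.15, numpy 2.4.6, pandas 2.3.3 and scipy 1.17.1 were used. No test is given, because the members were selected on these calls and each list is 1 library. The members, lists and alternatives were chosen with earlier results of these data known. Named pairs follow rules on rank of fold, ratio, summit distance, length, gap and cluster size. Depth is unknown.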

Additional observations from a re-analysis of the deposited data

How the results depend on the processing

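With an overlap of 50% of both intervals required, 58 members were left in replicate 1 and 56 in replicate 2, against 124 in each list. It was 20 in each list between the upper 50% of the lists by −log10 q, where the median fold enrichment was 5.88 in replicate 1 and 16.6 in replicate 2. The lists cut by −log10 q hold stronger peaks by construction. With 50% overlap the median fold enrichment was 4.39 in replicate 1 and 6.97 in replicate 2, against 4.36 and 6.80 for all members. Summits within 200 bp kept 83 and 84 members, a 1 bp overlap kept 123 in each list, and counting each interval once left 114 and 124. The rank agreement was −0.103 over the 36 pairs with both peaks in the upper 50% of members by −log10 q, and between 0.0286 and 0.120 in the other 6 alternatives. The median summit distance was 77 bp for summits within 200 bp and 63.5 bp for pairs with 50% overlap, both limited by the choice itself, and 136 to 162.5 bp otherwise. Clusters numbered 9 among those 36 pairs and 8 with a gap of 5 kb, chosen after seeing the data, against 14 with a gap of 2 Mb and 18 with 0.5 Mb or with replicate 2 summits. No paired analysis was possible because only anti-ZmbZIP22 peaks were analysed. Without either replicate there is no partner list, hence no value. Depth limits single peaks: the smallest rest on 11 and 9 fragments.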

Other observations

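Close partner summits stood together at the start of the chromosome. The first 13 pairs, up to a replicate 1 summit at 8269167 and including the block of 8, all had summits within 98 bp of each other, with a median of 66 bp. Of the 111 later pairs, 37 (33.3%) were within 100 bp, with a median of 147 bp. The block of 13, among those later pairs, also had a low median, 88 bp, though its distances reached 287 bp. On chromosome 1 the first 16 partnered pairs were likewise all within 100 bp, and on the other chromosomes this initial run held between 0 and 9 pairs. The run was picked out by the distances themselves, which the choice of members also used, so the contrast is a description and no test of a change along the chromosome.

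Identical sets of pileup, fold enrichment and −log10 q recurred among members. In replicate 1, 4 members had the same set, at a pileup of 9.63 and 3.35-fold enrichment, with replicate 1 summits at 151112718, 156529664, 157021318 and 158121952. Their replicate 2 partners had 4.58-fold, 3.30-fold, 13.3-fold and 5.70-fold enrichment.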
